A study of Mus musculus with 4 samples.

Results

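The 10 genes described here mark or control blood stem and progenitor cells. They were chosen by name: the surface proteins Cd34, Cd93, Cd27, Prom1, Procr, Slamf1 and Ly6a and the transcription factors Hlf, Gata2 and Erg. All 10 were found among the 23235 genes of the deposited tables. RNA was sequenced from acute myeloid leukaemia carrying the genotype NRASG12V/Mll-AF9, an activated Ras together with a fusion of the Mll and AF9 genes. Cells of this leukaemia were injected through the tail vein into SCID/Beige mice, and disease was left to develop for 20 days. These mice lack T and B lymphocytes and have defective natural killer cells. They keep their own stem, progenitor and other blood-forming cells, red cells and platelets included, and their vessel-forming cells. Doxycycline shut off NRASG12V in 3 samples, harvested 48 h, 72 h and 96 h later, and 1 sample had NRASG12V on. All 4 carry the Mll-AF9 fusion. The sources used here do not give the promoter that drives NRASG12V, the tissue harvested or the number of mice behind each library, and nothing says that the libraries come from separate mice. The labels carry 1 doxycycline text for all 4 samples and describe no control that received the drug with NRASG12V kept on, so the drug, the elapsed time and the switch cannot be told apart.

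Blood stem cells sit at the top of a hierarchy in which surface proteins are gained and lost as cells commit to a lineage, and combinations of these proteins are used to sort them. Cd34 and Cd93 are carried by progenitors and by vessel-lining cells, while Procr, Slamf1 and Ly6a help to define mouse stem cells. Gata2, Erg and Hlf are factors that such cells need or use, and Gata2 gives way to its relative Gata1 as red cell precursors mature. In leukaemia driven by Mll fusions, the cells that renew the disease resemble committed myeloid progenitors more than stem cells.

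Once NRASG12V was off, Cd34, Cd93 and Gata2 fell, and no other gene of the 10 passed the test in either direction. Cd34 was at 20.8% of its on value by 48 h and stayed near that share, Cd93 was at 37.7% by 48 h and 25.7% by 96 h, and Gata2 was at 45.3% and 37.3% at those times. Procr and Slamf1, both used to recognise stem cells, were somewhat higher in all 3 off libraries without passing the test, Erg and Prom1 were lowest at 96 h, Ly6a went either way, Cd27 stayed near 1 FPKM and Hlf was barely detected.

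RefSeq promoter sequences (build GRCm38.p6) were available for 8 of the 10 genes; Cd93 and Ly6a are named only. The 250 bases upstream of the start site are shown for Cd34 and for both starts of Gata2, as the genes that fell, and for Procr, as one that was higher in every off library. They were searched on both strands for AGATAA, the motif of GATA factors such as Gata2, for GGAAGT, a motif of ETS factors such as Erg, for TTANGTAA, the motif of the family that holds Hlf, and for TGANTCA, the AP-1 motif. No match overlapped another motif. Of 32851 mouse promoter windows of that length, 9.99% held the first, 19.7% the second, 2.06% the third and 6.75% the fourth. Capitals mark the only match among those printed, an AP-1 motif lying 154 to 148 bases before the Procr start. The Cd34 and Gata2 windows held none of the 4 motifs in the forms searched. Other forms of the GATA motif, such as AGATAG, were not searched, and the Cd34 window holds its reverse complement, ctatct. The windows lie at chr1:194938571-194938820 (Cd34, plus strand), chr6:88193641-88193890 and chr6:88198414-88198663 (Gata2, plus strand) and chr2:155750967-155751216 (Procr, plus strand).
Cd34: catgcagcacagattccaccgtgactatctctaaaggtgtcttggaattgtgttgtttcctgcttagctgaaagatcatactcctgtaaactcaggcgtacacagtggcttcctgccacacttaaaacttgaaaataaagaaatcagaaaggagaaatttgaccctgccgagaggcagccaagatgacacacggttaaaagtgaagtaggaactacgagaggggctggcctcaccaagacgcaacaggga
Gata2 first start: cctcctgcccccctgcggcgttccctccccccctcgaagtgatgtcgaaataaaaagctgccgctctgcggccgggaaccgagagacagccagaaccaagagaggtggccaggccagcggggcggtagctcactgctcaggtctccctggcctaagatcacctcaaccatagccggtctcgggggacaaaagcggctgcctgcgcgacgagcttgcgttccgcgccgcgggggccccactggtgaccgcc
Gata2 second start: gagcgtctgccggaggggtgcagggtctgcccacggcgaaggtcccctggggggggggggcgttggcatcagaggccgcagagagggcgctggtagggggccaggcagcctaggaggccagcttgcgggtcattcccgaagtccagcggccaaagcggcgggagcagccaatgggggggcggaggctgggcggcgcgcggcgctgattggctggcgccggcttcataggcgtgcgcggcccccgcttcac
Procr: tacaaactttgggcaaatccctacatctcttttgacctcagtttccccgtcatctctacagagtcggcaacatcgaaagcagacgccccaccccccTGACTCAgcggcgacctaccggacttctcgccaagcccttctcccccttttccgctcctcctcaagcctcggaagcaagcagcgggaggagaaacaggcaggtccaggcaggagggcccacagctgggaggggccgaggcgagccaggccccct
Outside these, both Prom1 windows held an AP-1 motif, the second of them also GGAAGT, and the third Erg window held AGATAA. Motif matches describe the letters only, and no binding was measured.

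Values are FPKM, fragments scaled by transcript length and by sequencing depth, which allows levels of different genes to be set side by side. Each deposited table pairs 1 off library with the on library and was scaled separately, so the on values of the 72 h and 96 h tables are 0.949 and 0.947 times those of the 48 h table; each off value is given beside the on value of its own table. Changes are log2((off FPKM + 1)/(on FPKM + 1)) within a table. The added 1 FPKM makes the change of low genes look smaller than it was. A gene was counted at a time if it reached 1 FPKM in either library, and called lower or higher at 2-fold. No time has a replicate, so these calls carry no p-value. One test was run: limma, a linear model fitted across all genes, compared the 3 off libraries with the on library. It counts differences between times as spread and assumes that the single on library varies like the off libraries. FPKM hold no read counts. From the steps of the lowest values, off libraries held 1.15, 1.04 and 1.18 times as many reads per FPKM at 48 h, 72 h and 96 h as the on library, and the total depth is unknown. Whether reads of NRASG12V count towards Nras is not stated, so Nras is no firm test of the switch. Nras stood at 17.1, 17.1 and 18.4 FPKM off against 24.5, 23.2 and 23.2 FPKM on (limma, Benjamini-Hochberg adjusted p = 0.128).

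Of the 10 genes, 9 reached 1 FPKM, each already in the on library, and Hlf did not. At 48 h, 2 of 9 were at least 2-fold lower, where 4.85% of 11739 genes were, and 0 were at least 2-fold higher, where 5.0% were. At 72 h, 2 were lower (5.76% of all genes) and 0 higher (6.61%). At 96 h, 3 were lower (8.16%) and 0 higher (7.39%). The median change of the 9 genes was -0.05, -0.27 and -0.42 at 48 h, 72 h and 96 h, beside -0.14, -0.07 and -0.06 over all genes tested. Over the 3 times, limma with Benjamini-Hochberg adjustment called 3 of the 9 lower, beside 15.2% of 11958 genes, and 0 higher, beside 11.8%; at an unadjusted p under 0.05 the counts were also 3 and 0. With the median change of genes at 1 FPKM or more in both libraries set to 0, which moves the 48 h changes up by 0.15, the split of calls among all genes at 48 h was 811 higher and 395 lower, against 587 and 569 without it, and the counts among the 9 were the same.

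**Figure D1:**
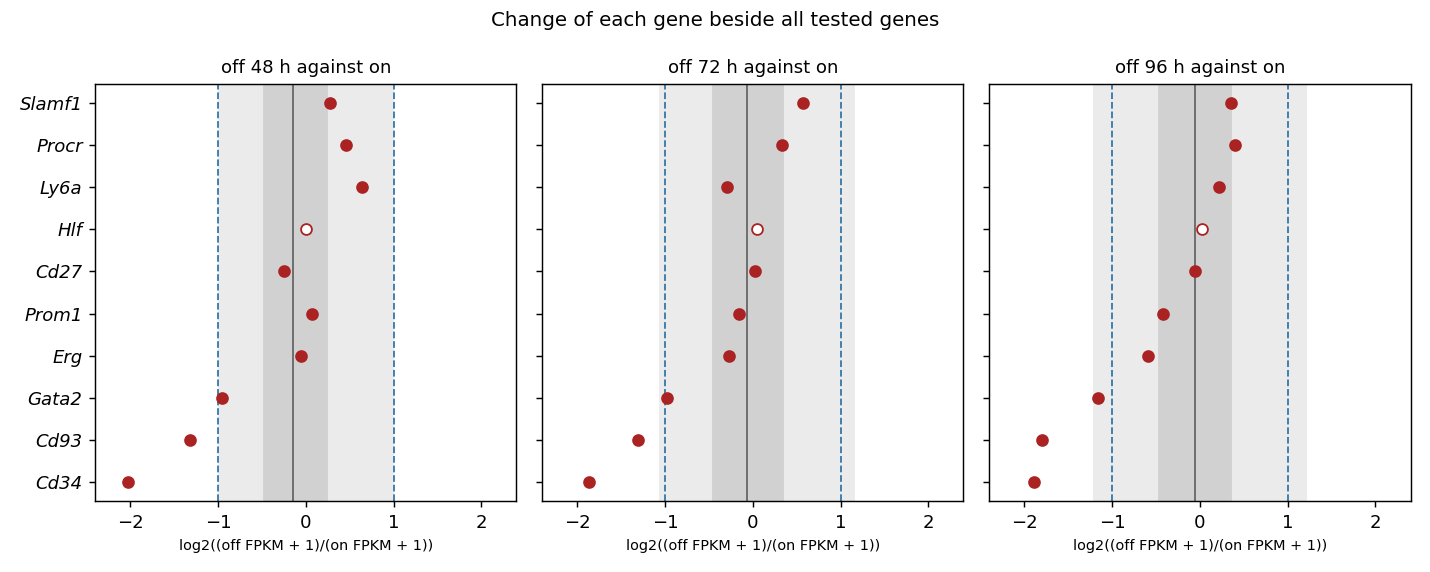
Log2 change of each of the 10 genes (points) at 48 h, 72 h and 96 h off against on; the grey bands hold the middle 50% and 90% of all genes tested, the grey line is their median, dashed lines mark 2-fold and the open point is Hlf, which was under 1 FPKM. Cd34 and Cd93 lie beyond the 2-fold line at every time, Gata2 close to it at 48 h and 72 h and past it at 96 h, and the other 7 between the lines.

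Cd34, a heavily glycosylated surface mucin and the classical progenitor marker, had the largest fall of the 10. With NRASG12V off it was at 4.19, 4.49 and 4.41 FPKM (48 h, 72 h and 96 h), against 20.1, 19.1 and 19.1 FPKM on. The 3 off libraries were close to each other and far below the on library. The changes were -2.02, -1.87 and -1.89, with a mean of -1.93 ± 0.08 (SD, n = 3 off libraries; limma, Benjamini-Hochberg adjusted p = 0.00097). Only 0.434%, 0.724% and 1.18% of all genes tested changed as far downwards at the 3 times. The full extent of the fall was there at the first time sampled: the 96 h change was smaller than the 48 h change by 0.13 on the log2 scale.

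Cd93, a receptor with a C-type lectin domain found on early progenitors, myeloid cells and endothelium, was the most abundant of the 10 in the on library. The off libraries held 9.60, 9.18 and 6.19 FPKM in order of time, against 25.5, 24.2 and 24.1 FPKM on. The first pair of off libraries was alike and the 96 h library lower still, by 0.50 on the log2 scale from 72 h. The mean change was -1.48 ± 0.28 (SD, n = 3; limma, Benjamini-Hochberg adjusted p = 0.0043).

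Gata2, the zinc finger factor that maintains stem and early progenitor cells, stood at 3.51, 3.23 and 2.74 FPKM off, against 7.75, 7.36 and 7.34 FPKM on. Each off library was lower than the on library, with little difference among the 3. The changes of -0.96, -0.98 and -1.16 straddle the 2-fold line, and only the 96 h value is past it. Their mean was -1.03 ± 0.11 (SD, n = 3; limma, Benjamini-Hochberg adjusted p = 0.0060). Whether it is past the line at a time depends on the added FPKM: with 0.1 FPKM added, the changes were -1.12 and -1.16 at 48 h and 72 h, and with 5 FPKM added the 96 h change was -0.67.

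**Figure D2:**
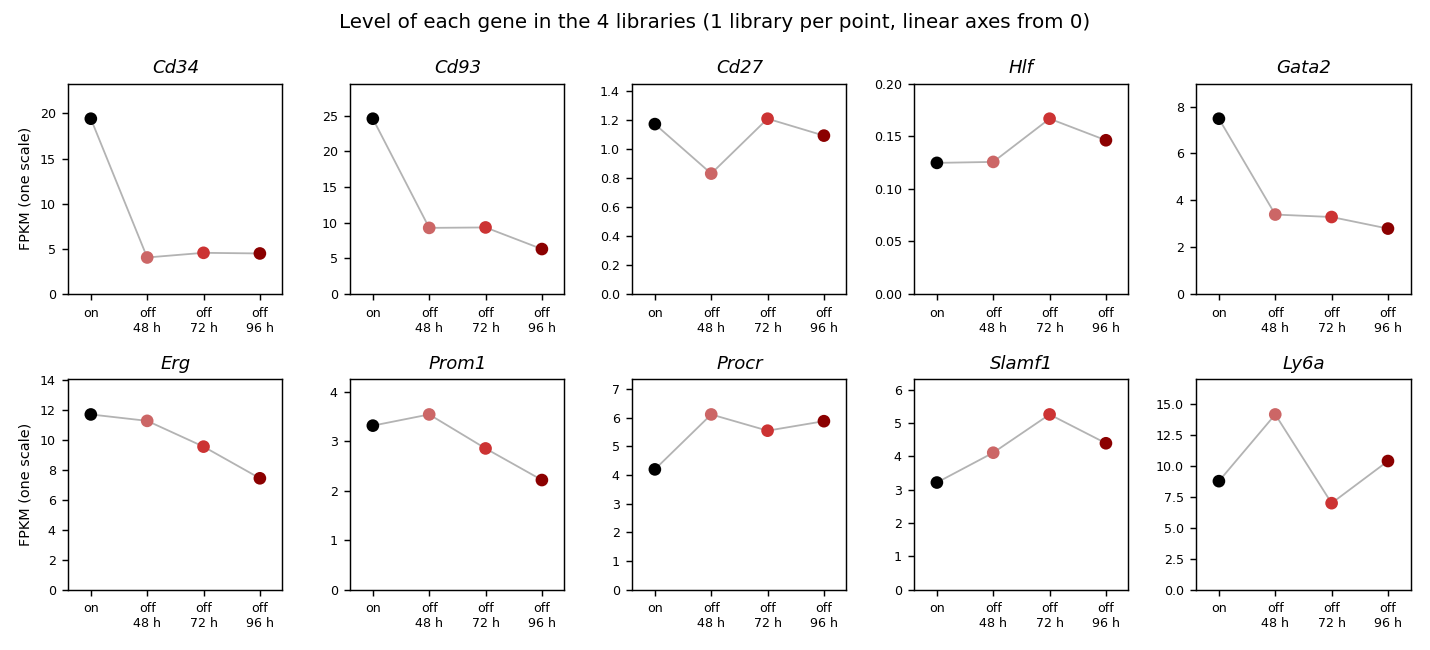
FPKM of each of the 10 genes (linear axes from 0, 1 point per library) with NRASG12V on and at 48 h, 72 h and 96 h off, on 1 scale shared by the tables. Cd34, Cd93 and Gata2 drop at 48 h, Erg declines over the times, Procr and Slamf1 lie above the on library throughout, and Hlf stays below 0.2 FPKM.

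The second factor, Erg, an ETS protein needed to keep stem cells and also made by megakaryocytes and endothelium, was at 11.7, 9.42 and 7.32 FPKM in the off libraries by time, against 12.1, 11.5 and 11.5 FPKM on. It was near the on level at 48 h and lower at each later time. Its changes were -0.05, -0.27 and -0.59, and the mean of -0.30 ± 0.27 did not pass (SD, n = 3; limma, Benjamini-Hochberg adjusted p = 0.359). With the median change set to 0, the 48 h value was 0.10 instead. Hlf, a leucine zipper factor restricted to stem cells in blood, was at 0.130, 0.164 and 0.143 FPKM off, against 0.129, 0.123 and 0.122 FPKM on. These levels, all far under 1 FPKM, were not tested, and no difference is readable at this depth.

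Prom1, a membrane protein of surface protrusions known as a marker of human stem cells, showed 3.67, 2.81 and 2.18 FPKM off, against 3.44, 3.27 and 3.26 FPKM on. It followed the order seen for Erg, near the on level at 48 h and lowest at 96 h, with changes of 0.07, -0.16 and -0.42 (limma, Benjamini-Hochberg adjusted p = 0.584). Cd27, a receptor of the tumour necrosis factor family that separates progenitors and activates lymphocytes, was at 0.860, 1.19 and 1.07 FPKM off, against 1.21, 1.15 and 1.15 FPKM on. Its off libraries lay on both sides of the on library (limma, Benjamini-Hochberg adjusted p = 0.731).

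Procr, the receptor that binds protein C on endothelium and marks dormant stem cells in mice, was at 6.34, 5.46 and 5.77 FPKM off, against 4.35, 4.13 and 4.12 FPKM on. Every off library was above the on library and the 3 were alike, at 0.40 ± 0.06 on the log2 scale, but the test was not passed (SD, n = 3; limma, Benjamini-Hochberg adjusted p = 0.127). Slamf1, a self-binding receptor of the signalling lymphocyte activation family, was at 4.26, 5.17 and 4.31 FPKM off, against 3.33, 3.16 and 3.15 FPKM on. It too was above the on library at every time, by 0.40 ± 0.15 (SD, n = 3; limma, Benjamini-Hochberg adjusted p = 0.149). Ly6a, a surface protein held by a lipid anchor, stood at 14.7, 6.87 and 10.2 FPKM off, against 9.08, 8.62 and 8.60 FPKM on. It was higher at 48 h and 96 h and lower at 72 h, so the off libraries enclose the on library (limma, Benjamini-Hochberg adjusted p = 0.684).

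The order of levels differed between the off and on libraries. On 1 scale shared by the tables, Ly6a led at 96 h off (10.4 FPKM), followed by Erg (7.46), Cd93 (6.30), Procr (5.88), Cd34 (4.49), Slamf1 (4.39), Gata2 (2.79), Prom1 (2.22), Cd27 (1.09) and Hlf (0.146 FPKM). The on library ran from Cd93 (24.6 FPKM) and Cd34 (19.4 FPKM) through Erg (11.7), Ly6a (8.76), Gata2 (7.48), Procr (4.199), Prom1 (3.32), Slamf1 (3.21) and Cd27 (1.17) to Hlf (0.125 FPKM). Cd34 and Slamf1 were thus neighbours at 96 h but stood 6 ranks apart in the on library. With 1 library per time, whether neighbours differ cannot be tested. The summed FPKM of the 10 genes was 56.9, 48.8 and 45.2 at 48 h, 72 h and 96 h, against 84.0 on, and Cd34 with Cd93 made up 23.4%, 28.5% and 23.9% of it, against 52.4% on.

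Gata2 and Erg work in a network of factors with Tal1, Lyl1, Lmo2, Runx1 and Fli1, and Gata2 shares the partners Ldb1 and Cbfa2t3 with Gata1, whose own cofactor is Zfpm1. Of the 9 genes other than Gata2 and Erg, limma called 4 higher and 1 lower (centred on the median of all genes, 5 and 0). Gata1, the master factor of red cells and megakaryocytes, was at 65.4, 76.1 and 99.4 FPKM off, against 21.99, 20.9 and 20.8 FPKM on, and rose by 1.85 ± 0.34 (SD, n = 3; limma, Benjamini-Hochberg adjusted p = 0.0029). Gata1 was therefore 18.6, 23.5 and 36.3 times as abundant as Gata2 at 48 h, 72 h and 96 h, against 2.84 times with NRASG12V on. Tal1 rose by 2.03 ± 0.28 and Zfpm1 by 2.30 ± 0.20 (limma, Benjamini-Hochberg adjusted p = 0.0018 and 0.0010). Lmo2 rose by 0.78 ± 0.19 (adjusted p = 0.035; 0.137 without the 72 h library). Fli1, the closest relative of Erg, fell by 0.94 ± 0.31 (SD, n = 3; limma, Benjamini-Hochberg adjusted p = 0.027; 0.063 with the median change set to 0). It stood at 19.1, 16.4 and 11.6 FPKM off, against 31.5, 29.9 and 29.8 FPKM on. The ratio of Erg to Fli1 was 0.613, 0.575 and 0.629 off, against 0.386 on. Runx1, Lyl1, Ldb1 and Cbfa2t3 did not pass.

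**Figure D3:**
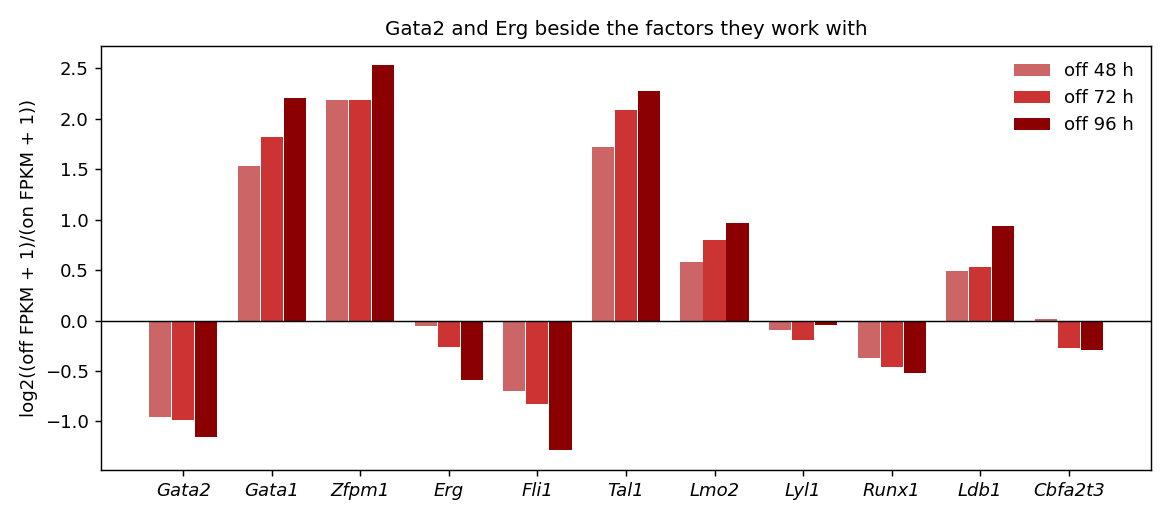
Log2 change at 48 h, 72 h and 96 h off against on (bars from 0) of Gata2, Erg and 9 factors of their network. Gata2, Erg, Fli1, Runx1 and Lyl1 lie below 0 at all 3 times (with the median change set to 0, Erg at 48 h and Lyl1 at 48 h and 96 h lie above it), while Gata1, Zfpm1, Tal1, Lmo2 and Ldb1 lie above 0 at all 3 times.

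Among relatives and binding partners of the surface proteins, 8 of 26 measured genes were called lower and 5 higher by limma, with a median change of -0.11 beside -0.08 over all genes. Podxl, the nearest relative of Cd34, rose by 1.48 ± 0.13 while Cd34 fell: it stood at 16.6, 16.0 and 18.8 FPKM off, against 5.67, 5.38 and 5.37 FPKM on (SD, n = 3; limma, Benjamini-Hochberg adjusted p = 0.0020). Selp, a selectin of platelets and endothelium that binds glycosylated mucins, fell by 1.55 ± 0.11 (SD, n = 3; limma, Benjamini-Hochberg adjusted p = 0.0018). In the family of Slamf1, Cd48, a marker that separates progenitors from stem cells, was at 36.5, 30.6 and 26.9 FPKM off, against 61.5, 58.4 and 58.3 FPKM on, and fell by 0.91 ± 0.17 (adjusted p = 0.016, limma). Its receptor Cd244 fell by 1.12 ± 0.17, whereas Slamf7 rose by 1.15 ± 0.14 (limma, Benjamini-Hochberg adjusted p = 0.0061 and 0.0049). Slamf1 stood at 0.117, 0.169 and 0.160 of the level of Cd48 off, against 0.0541 on. Slamf1 itself did not pass. The changes of Cd48 (-0.74, -0.91 and -1.09) lay within the range of the 20 leukocyte genes described below at each time. In the family of Ly6a, Ly6c2 fell by 1.95 ± 0.35 (SD, n = 3; limma, Benjamini-Hochberg adjusted p = 0.0029), with 159, 117 and 91.5 FPKM off against 481, 457 and 456 FPKM on. Ly6 genes have close copies and reads may be divided between them, so their values are uncertain. Nfil3, which competes with the family of Hlf for its sites, fell by 1.42 ± 0.33, and Dbp, a relative of Hlf, rose by 0.94 ± 0.22 (limma, Benjamini-Hochberg adjusted p = 0.0068 and 0.014). Dbp was under 1 FPKM in the on library and entered the test only through the off libraries, where it was higher. Thbd, which belongs to the family of Cd93 and works beside Procr, was higher by 0.46 ± 0.02 (SD, n = 3) and did not pass. Cd70, the ligand of Cd27, was listed at 0 in the off libraries, against at most 0.230 FPKM on.

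Of 29 other stem and progenitor genes, 5 rose and 1 fell over the 3 times, with a median of 0.31. Without the 72 h library 2 rose, and without the 48 h or the 96 h library 3 and 2 fell. Etv6, an ETS factor, fell by 1.17 ± 0.15 (limma, Benjamini-Hochberg adjusted p = 0.0048). Among those that rose, Mllt3 was higher by 1.34 ± 0.33 on the log2 scale (SD, n = 3). Mllt3 is the gene of AF9, and whether reads of the Mll-AF9 fusion count towards it is not stated. Tek was higher by 0.75 ± 0.08 and Zfp521 by 0.72 ± 0.10 (SD, n = 3), but both were under 1 FPKM in the on library. They entered the test only through the off libraries, where they were higher, and Zfp521 was not tested without the 72 h library. The growth factor receptors of progenitors were near their on level and did not pass: Kit had changes of 0.13, 0.16 and 0.13, and Flt3 of 0.10, 0.02 and -0.03. Kit was at 10.3 FPKM at 96 h off against 9.35 FPKM on, and Flt3 at 19.3 FPKM against 19.7 FPKM.

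In bulk RNA, fewer cells of a type and less RNA per cell cannot be told apart, and several of the 10 genes are also made outside the leukaemia. Genes shared by leukocytes fell in 7 of 20 cases and none rose (15 fell without the 48 h library, and 2 with the median change set to 0), with medians of -0.42, -0.70 and -1.07 at 48 h, 72 h and 96 h and a summed level of 3921, 3177 and 2415 FPKM off against 5269 FPKM on. Cd34 lay below all 20 of them at each time, by 1.61, 1.17 and 0.83 from their median, and so did Cd93, by 0.90, 0.60 and 0.74. Gata2 lay 0.54, 0.28 and 0.09 below that median, and at 96 h 7 of the 20 leukocyte genes were as low. Erythroid markers, led by Kel, Hbb-b1, Klf1 and Car1, rose in 19 of 19 cases, with medians of 1.88, 2.45 and 2.45 and a summed level of 24224, 36337 and 39141 FPKM off against 7751 FPKM on. Markers of early granulocyte and monocyte progenitors fell in 10 of 17 cases and rose in 1, Csf3r; their medians were -1.24, -1.26 and -1.49, and Ctsg, Prtn3, Ms4a3 and Elane fell most. The part of these cell types in the falls of Cd34, Cd93 and Gata2 was not tested. Nor was their part in the rises of Gata1, Tal1 and Zfpm1 or in the ratio of Gata1 to Gata2.

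**Figure D4:**
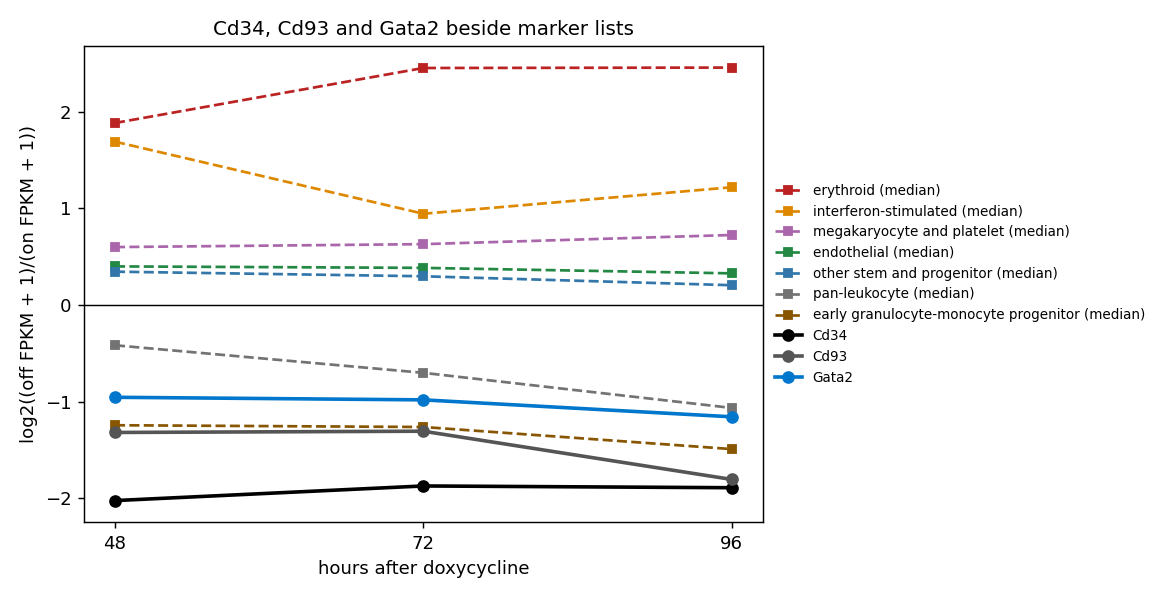
Log2 change of Cd34, Cd93 and Gata2 (solid lines) at 48 h, 72 h and 96 h off against on, with the median change of 7 marker lists (dashed lines). Cd34 and Cd93 lie below every list median at each time, and Gata2 lies close to the leukocyte median at 96 h.

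Endothelial markers, relevant for Cd34, Cd93, Erg, Procr and Ly6a, rose in 5 of 16 cases (Kdr, Sox17, Sox18, Stab2 and Mmrn2) and Pecam1 fell (limma, Benjamini-Hochberg adjusted p = 0.016); without the 72 h library neither Mmrn2 nor Pecam1 passed (adjusted p = 0.073 and 0.053). Their medians were 0.40, 0.38 and 0.33 and their summed level 162, 155 and 156 FPKM off, against 132 FPKM on. None of the endothelial markers was at 0 in all 4 libraries, and the endothelial cadherin Cdh5 was at 7.62 FPKM at 96 h off against 8.54 FPKM on. Megakaryocyte and platelet markers, relevant for Erg, rose in 8 of 15 cases, Gp6 most (3 of 15 without the 72 h library), and Selp, already named, fell, with medians of 0.60, 0.63 and 0.72 and a summed level of 688, 699 and 801 FPKM off against 485 FPKM on. Mast cell and basophil markers, relevant for Gata2, split: Mcpt8 and Prss34 fell by 3.42 ± 0.22 and 2.13 ± 0.35, Ms4a2 fell too, and Tpsb2, Cma1 and Il1rl1 rose, for 3 and 3 of 12 tested (5 rose without the 96 h library, and 2 without the 72 h library, where Cma1 had an adjusted p of 0.063 by limma). Their summed level was 63.8, 50.4 and 39.9 FPKM off, against 60.9 FPKM on. Lymphoid markers, relevant for Cd27, Slamf1 and Ly6a, rose in 5 of 13 cases, Ncr1 among them, and fell in 2, Nkg7 and Cd79b (3 rose of 11 tested without the 48 h library), with a summed level of 77.7, 65.6 and 61.6 FPKM off against 91.3 FPKM on; the B cell factor Pax5 was listed at 0 in all 4 libraries. Ly6a is also known to respond to interferon, and interferon-stimulated genes rose in 12 of 24 cases, led by Isg15, Rsad2, Usp18 and Oas3 (17, 18 and 11 rose without the 48 h, the 72 h and the 96 h library, and Oas3 did not pass without the last, at an adjusted p of 0.274 by limma), with medians of 1.69, 0.94 and 1.22, lowest at 72 h as for Ly6a. The part of these markers in the values of the 10 genes was not tested. Nkg7, a lymphoid fall here, was also counted above among the falls of early granulocyte and monocyte progenitor markers. Sox17, Tpsb2 and Ncr1 were under 1 FPKM in the on library. They entered the test only through the off libraries, where they were higher.

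Among 8085 genes with at least 5 FPKM in the on library, the pattern over the 3 times lay closest to that of Cd34, by Euclidean distance over the 3 log2 changes, for Egr1 (distance 0.194), F10 (0.195) and H1f0 (0.206). For Cd93 the nearest were Atp8b4 (0.0833), Pgk1 (0.105) and Plp2 (0.107), and for Gata2 they were Atp13a2 (0.0144), Slc35c1 (0.0212) and Foxp1 (0.0620). These distances rest on 3 comparisons that share the on library. In the authors' deposited combined table, whose off column was, on 1 scale, 1.03 times the mean of the 3 off libraries, Cd34 stood at 5.27 FPKM off against 22.8 FPKM on, Cd93 at 10.1 against 28.9 FPKM, and Gata2 at 3.82 against 8.80 FPKM.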

How the data were processed

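Bulk RNA sequencing of 4 libraries was analysed: NRASG12V off for 48 h, 72 h and 96 h, and on. The values are FPKM as deposited by the authors for 23235 genes; TopHat2 2.0.4, Cuffdiff and genome build mm9 are named in the submitters' processing notes, and the sources used here give no annotation, Cuffdiff version or strand setting, so reads of antisense or overlapping genes cannot be told apart. Each table's 0 hour column was read as the on library, the only sample whose title gives no time. Its values differ between tables by 1 factor (0.949 at 72 h and 0.947 at 96 h relative to the 48 h table, within 0.1% for at least 99.9% of genes). For the test across times, the libraries were put on 1 scale through that column.

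Changes are log2((off FPKM + 1)/(on FPKM + 1)) within each table, for genes reaching 1 FPKM in either library, called at 2-fold. A gene under 1 FPKM in the on library was tested only if an off library reached 1 FPKM. Such genes could hardly be called lower, which favours rises in the counts of the lists. limma 3.58.1 (R 4.3.3, statmod 1.5.0) was run on log2(FPKM + 1) for 11958 genes with Benjamini-Hochberg adjustment at 0.05. Its eBayes step used a mean trend and robust variances, on 2 residual degrees of freedom. The procedure was tested on simulated data in which all 4 libraries had equal, independent noise. That test therefore cannot show whether the single on library varies like the off libraries. Means and SDs are over the within-table changes of the 3 off libraries, so a p-value reflects no more than how these libraries differ, and nothing says that they are separate mice. All 10 genes are named; in each list up to 4 genes that passed and differed 2-fold at all times, by size of change, were named by rule, and other listed genes named in the text were chosen after their values were seen; some genes of the lists are not reported here. The genes and lists were chosen with earlier results of these data known. Alternatives were other pseudocounts, filters, centring on the median, plain eBayes settings and leaving out each off library.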

Additional observations from a re-analysis of the deposited data

Results flagged for a closer look

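Ly6a moved in opposite directions at 2 times: it was 0.64 above the on library at 48 h and 0.29 below it at 72 h on the log2 scale, a difference of -0.92 for 72 h minus 48 h. Each time holds 1 library, so the difference was not tested. Interferon-stimulated genes, whose median was 0.94 at 72 h and 1.69 at 48 h, moved the same way, and their part was not tested.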

How the results depend on the processing

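The calls of Cd34, Cd93 and Gata2 as lower held in all 9 limma alternatives, with 3 genes called lower and 0 higher in each; no direction of a called gene turned. Without 1 off library each, the fitted log2 change was -1.88 to -1.96 for Cd34, -1.31 to -1.56 for Cd93 and -0.97 to -1.07 for Gata2. Every alternative kept the same single on library, so none shows how far the calls depend on that library. The largest adjusted p was found without the filter on low values (0.0135, 0.0307 and 0.0269, limma, Benjamini-Hochberg). Leaving out an off library gave 1205 to 2409 lower genes among all tested, 1205 without the 72 h library, against 1817 with all. At 2-fold, Gata2 crossed the line with the pseudocount, as given above. Over all genes, a pseudocount of 0.1 FPKM gave 861 lower and 969 higher genes at 48 h and 1205 higher at 72 h; a pseudocount of 5 FPKM gave 250 and 281 at 48 h, 301 and 385 at 72 h, and 470 and 446 at 96 h, against 569 and 587, 676 and 776, and 957 and 867 with 1 FPKM. Those shifts follow from the pseudocount itself. Of 206 values of single genes under an alternative, 199 kept their direction and their side of the threshold, 3 crossed the threshold, all of Gata2, and 4 changed sign without being called. With the median change set to 0, Erg at 48 h was at 0.10 against -0.05, Cd27 at 96 h at 0.02 against -0.05 and the fitted Cd27 change at 0.0089 against -0.09; leaving out 1 off library put the fitted Ly6a change between -0.034 (without 48 h) and 0.428 (without 72 h), against 0.19 with all. The cause was not tested. No paired analysis was possible because each group holds 1 library. Total depth is unknown, so no counting interval can be given, and values under 1 FPKM, as for Hlf, are the least certain.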
